A study of Mus musculus with 138 samples.

Results

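The 10 genes described here encode the glucose carrier Slc2a1, 7 enzymes of glycolysis (Hk1, Gpi1, Aldoa, Tpi1, Gapdh, Pgk1 and Eno1) and the lactate dehydrogenase subunits Ldha and Ldhb. They were taken by name from the feature column of 2 tables of raw counts, and they are 10 of the 25900 genes in those tables. RNA was read from single mouse embryos at the 2-cell stage, and libraries with at least 100000 counts were used. Ldhb was higher after maternal deletion of Smarca5, which encodes a chromatin remodeller, and so was Slc2a1, while no other tested gene of the 10 passed the test in that comparison.

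In the first experiment, embryos of females lacking Smarca5 in the egg and wild-type males (labelled Smarca5 +/-, called maternal deletion, n = 28) were compared with embryos labelled Smarca5 +/+ (called wild type, n = 22). The titles of both groups name matKO females, so the labels do not tell the mothers apart, and embryo genotype and maternal loss cannot be told apart. In the second experiment SMARCA5 protein was degraded in wild-type zygotes by TrimAway, in which an injected antibody directs its target to degradation through TRIM21. Its groups were embryos injected with the antibody (anti-SMARCA5, n = 31), embryos injected with IgG (n = 20) and uninjected embryos (n = 15), and libraries were made at least 24 hours after injection. The strain, the Cre driver and the age of the mice are not given in the sources used here. A replicate number names a pool of embryos, and the labels call these replicates technical. Each library is a different embryo, so p-values measure the spread between embryos of few pools.

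Of 135 embryo libraries 116 were kept, with 109007 to 12004992 counts and a median of 1469197. All 6 IgG libraries of replicate 2 fell below the minimum. Smarca5 itself measured 91.9 ± 76.1 CPM (mean ± SD) after maternal deletion and 387 ± 193 CPM in wild-type embryos, where CPM is the count scaled to library size by TMM. Trim21 had over 3 counts in 30 of 31 anti-SMARCA5 libraries and in 8 of 20 IgG libraries, all of the latter from replicate 3. Of the 14 measured markers of the 2-cell embryo, 13 had a median over 3 counts in wild type and 7 in maternal deletion. Maternal deletion libraries also carried more oocyte transcripts, and those values stand beside the results below. A few libraries went against their group. The maternal deletion libraries with the most Smarca5 were those of well H09 in replicate 1 (312 CPM) and well A04 in replicate 2 (290 CPM), and the wild-type libraries of wells G05 and H05 in replicate 2 held 147 and 159 CPM. The anti-SMARCA5 library of replicate 2, well C02, held no Trim21 count. As background, 3 wells without an embryo held 453 to 1875 counts, with 0, 1 and 7 counts of Ldhb, 1 count of Aldoa in 1 well and none of the other 8 genes. All 3 were sequenced on the lane of replicate 2 of the first experiment, so the other lanes have no such well.

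Glycolysis breaks glucose down to pyruvate, and lactate dehydrogenase interconverts pyruvate and lactate, using NADH. The enzyme is a tetramer of A and B subunits, and the B form prevails in mouse oocytes and early cleavage embryos. The cleaving mouse embryo lives mainly on pyruvate and lactate at first and takes up more glucose later.

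Ldhb, Slc2a1 and Ldha are the members on which the results turn, since the first pair rose together after deletion and the third did not. Their upstream sequences are shown for that reason, from RefSeq promoter windows on GRCm38.p6, 5′ to 3′ on the gene's strand. All 10 genes had at least 1 window. Capitals mark the letters ACGTG or GCGTG on either strand, the core to which hypoxia-inducible factors, known regulators of glycolysis genes, can bind. For Slc2a1 the last 34 bases of the window are left off because they lie in an annotated exon. Ldha has 2 windows, and only the first is printed. The printed Ldha window lies upstream of its main start and inside the span of the annotated gene, outside its exons.
Ldhb, chr6:142507958-142508207, minus strand: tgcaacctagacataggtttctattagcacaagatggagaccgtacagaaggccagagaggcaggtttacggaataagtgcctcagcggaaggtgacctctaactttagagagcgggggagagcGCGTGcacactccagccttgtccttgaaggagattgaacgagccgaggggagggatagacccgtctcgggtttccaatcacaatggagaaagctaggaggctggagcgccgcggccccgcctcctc
Slc2a1, chr4:119108495-119108710, plus strand: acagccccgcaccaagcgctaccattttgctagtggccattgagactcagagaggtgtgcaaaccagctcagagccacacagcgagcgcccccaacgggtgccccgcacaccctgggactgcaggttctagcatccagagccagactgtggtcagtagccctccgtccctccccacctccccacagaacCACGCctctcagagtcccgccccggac
Ldha, chr7:46845554-46845803, plus strand: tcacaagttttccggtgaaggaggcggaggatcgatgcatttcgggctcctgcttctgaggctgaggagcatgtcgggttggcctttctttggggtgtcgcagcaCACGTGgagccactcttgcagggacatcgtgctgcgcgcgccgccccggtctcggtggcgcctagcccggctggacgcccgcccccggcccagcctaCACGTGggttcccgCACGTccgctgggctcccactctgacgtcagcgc

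Among the printed stretches the marked letters were densest at Ldha, with 5 matches, against 1 in that of Ldhb and 1 in that of Slc2a1. The second Ldha window, not printed, held 1 GCGTG and no ACGTG. The full Slc2a1 window held 1 of each. Within the printed Ldha window, 2 sites are the palindrome CACGTG, which contains ACGTG on both strands and so counts as 2 matches each time. Over the 250 bases upstream of every start, ACGTG was found at 4 of the 10 genes and GCGTG at 6. These letters are common, and 16.6% and 28.2% of all 32851 windows held them. By window, 5 and 8 of the 16 windows of the members held them, and some of these windows overlap. A gene can have several windows, and each gene counts as matching if any of its windows did. CACGTG occurred at 1 of the 10 genes and in 6.02% of all windows, CCAAT at 4 genes and in 33.8%, and TATAAA at none and in 12.4%, all read on both strands. By window the members had 1, 6 and 0 of 16. A match describes the letters only, and the RNA data do not show what binds there.

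Levels of different genes were compared per kilobase of exon, from the GENCODE M21 annotation on GRCm38. Ldhb stood first of the 10 in all 5 groups. Its group mean was 166 ± 152 CPM per kb in wild type and 1144 ± 943 in maternal deletion. In the TrimAway experiment the means were 160 ± 54.1 in uninjected, 125 ± 55.4 in IgG and 207 ± 160 in anti-SMARCA5 libraries. The next gene in wild type was Pgk1, with 14.2 ± 17.2 CPM per kb, and the next in maternal deletion was Slc2a1, with 17.0 ± 12.4. In all 3 TrimAway groups the next was Ldha, at 21.4 ± 15.4 in uninjected, 16.9 ± 8.22 in IgG and 21.4 ± 16.6 in anti-SMARCA5. Gapdh, often used as a reference gene in other tissues, ranked 9 of 10 and Hk1 10 of 10 in every group. The largest group mean of Gapdh was 2.19 CPM per kb, in uninjected embryos, and that of Hk1 was 0.484, in anti-SMARCA5 embryos.

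**Figure D1:**
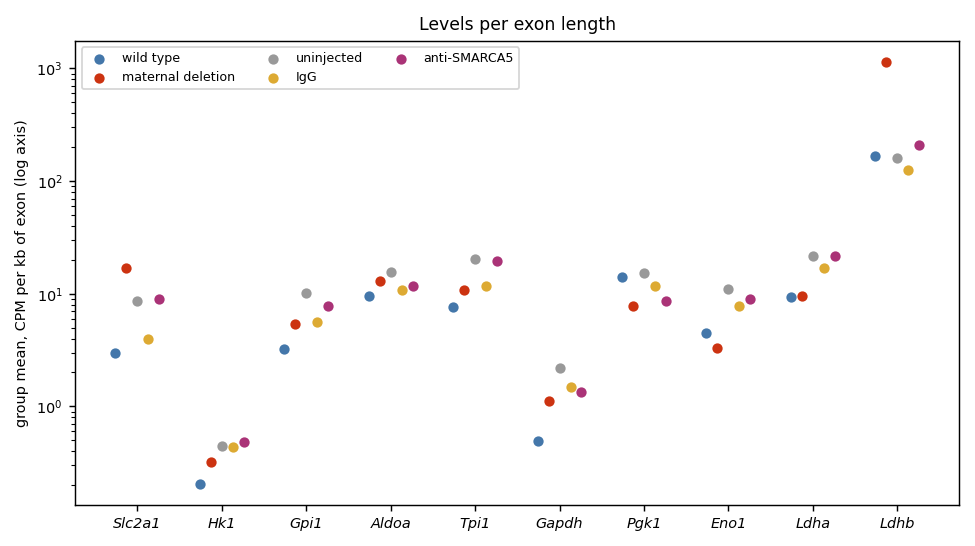
Group means of the 10 genes in TMM-scaled CPM per kilobase of exon on a log axis, 1 point per group (wild type, maternal deletion, uninjected, IgG, anti-SMARCA5). Ldhb lies between 125 and 1144 CPM per kb, above the other 9 genes in every group, and Hk1 lies lowest.

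Ldhb made up most of the RNA of Ldha and Ldhb together in every group. Its share of Ldha and Ldhb together, per length, had a median of 96.1% in wild type (range 84.3 to 100%) and 99.6% in maternal deletion (92.8 to 100%). In the TrimAway experiment the medians were 90.5% in uninjected (65.2 to 97.4%), 87.8% in IgG (72.0 to 94.9%) and 91.6% in anti-SMARCA5 libraries (58.4 to 99.7%). Ldha was at 0 in 4 of 22 wild-type and 3 of 28 maternal deletion libraries, where the share is 100% for that reason. The ranges of all groups overlap, and this share was not tested. Ldhc, a further lactate dehydrogenase subunit, is not part of the share. It measured 43.9 ± 41.8 CPM in wild type and 9.02 ± 16.1 CPM in maternal deletion. The experiments were sequenced separately, so levels set across them also carry that difference.

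Ldhb, at chr6:142490249-142507957 on the minus strand, encodes the subunit that favours lactate oxidation in many tissues. In maternal deletion libraries it ranged from 240 to 5681 CPM with a median of 1353, and in wild type from 33.5 to 933 CPM with a median of 161. The groups overlap, but all 28 maternal deletion libraries lay above the wild-type median and 18 lay above the highest wild-type library. The means were 1796 ± 1481 (n = 28) and 261 ± 239 CPM (n = 22). The log2 fold change was 2.78 (SE 0.35, 95% interval 2.1 to 3.47), with an edgeR adjusted p of 6.38e-09. Over the alternatives run, the adjusted p ranged from 1.16e-15 to 0.000414.

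In uninjected embryos Ldhb ranged from 105 to 385 CPM (median 261). In IgG embryos it ranged from 70.4 to 348 CPM (median 187), and in anti-SMARCA5 embryos from 90.3 to 1244 CPM (median 240). These 3 ranges overlap. The single highest value belongs to an anti-SMARCA5 embryo of replicate 3, a replicate that spanned 137 to 1244 CPM with a median of 430. In anti-SMARCA5 embryos of replicate 1 the maximum was 826 CPM (median 237), and in those of replicate 2 it was 695 CPM (median 169).

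Slc2a1, at chr4:119108711-119137330 on the plus strand, encodes GLUT1, a glucose carrier of the cell membrane. In maternal deletion it ranged from 0 to 153 CPM (median 55.9) and in wild type from 0 to 39.7 CPM (median 6.44). The groups overlap, with 26 of 28 maternal deletion libraries above the wild-type median and 16 above the wild-type maximum. The means were 59.7 ± 43.5 and 10.4 ± 11.4 CPM, a log2 fold change of 2.53 (SE 0.57) with an edgeR adjusted p of 0.000216, which ranged from 2.50e-06 to 0.0115 over the alternatives. In wild type, 10 of 22 libraries had 3 counts or fewer, so the lower level is known less well than that of Ldhb. Library depth also differed: in replicate 2 the median was 4686051 counts in maternal deletion and 650104 in wild type, and the part of depth in the result was not tested.

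In the TrimAway experiment Slc2a1 ranged from 2.68 to 153 CPM in uninjected (median 21.4), from 0.488 to 56.2 in IgG (median 9.17) and from 0 to 102 in anti-SMARCA5 embryos (median 24.0). The 3 groups overlap, and IgG has the lowest median. A microRNA gene on the same strand and a pair of antisense genes overlap Slc2a1, and strand handling in the counting is not given in the sources used here.

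**Figure D2:**
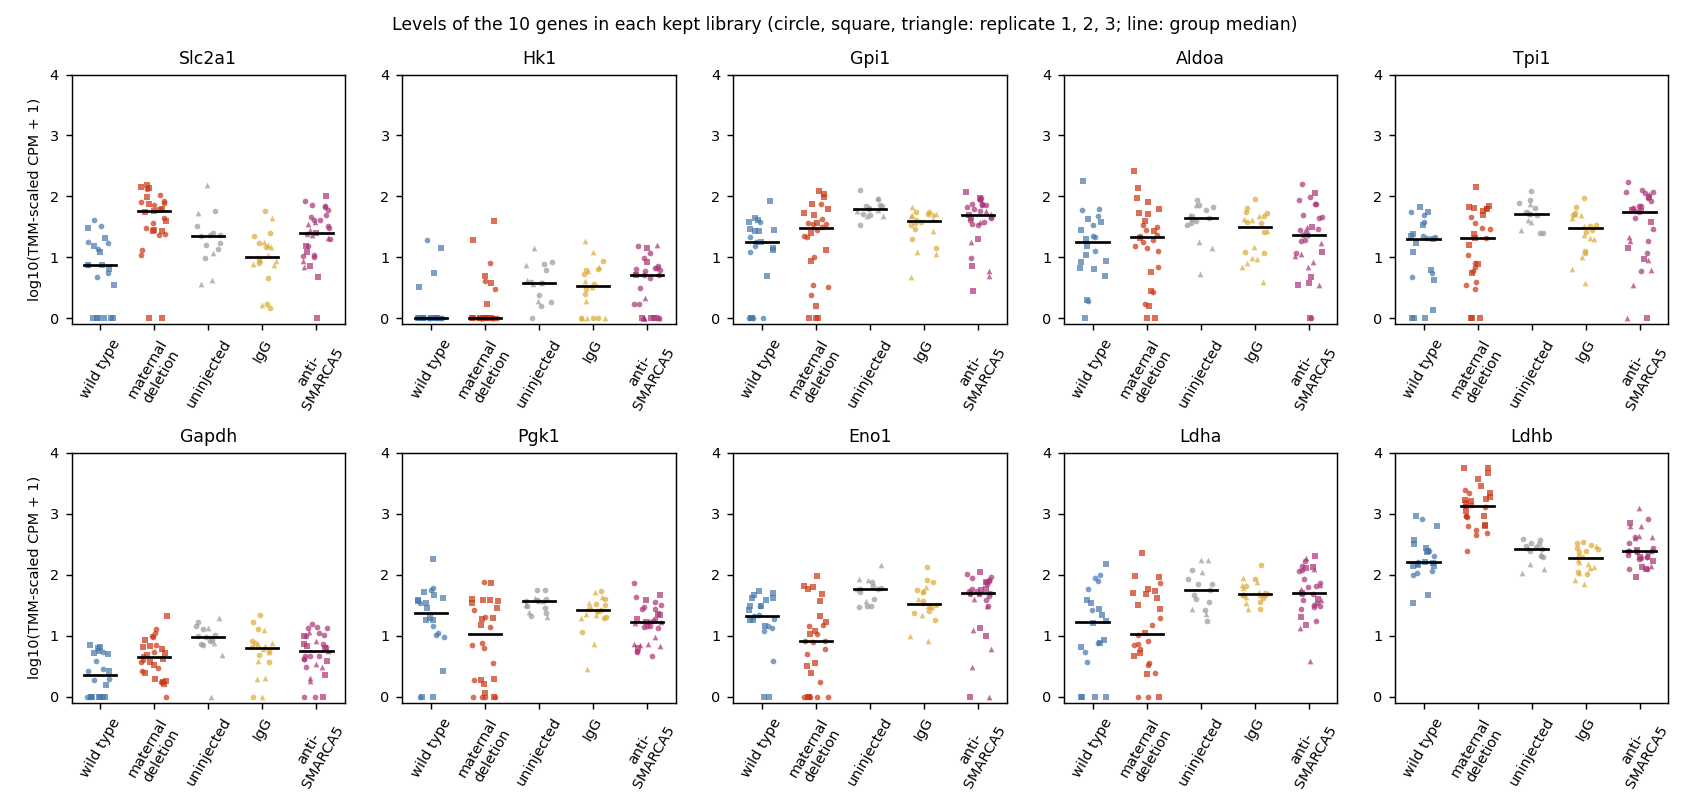
Each of the 10 panels shows 1 gene, with log10(TMM-scaled CPM + 1) for each of the 116 kept libraries by group, and a line at the group median; circles, squares and triangles are replicates 1, 2 and 3. Ldhb in maternal deletion (median 1353 CPM) lies mostly above wild type (median 161 CPM), and Hk1 is at 0 in most libraries of the first experiment.

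The other enzymes showed no call in maternal deletion against wild type. Of the 8 genes that passed the filter on low counts, 2 were called, both higher (25%), while 56.6% of the 8518 genes tested were called and 30.3% were called higher. The share among the members was below that of all genes. The median log2 fold change was 0.47 over the 8 genes and 0.18 over all genes tested. Hk1 and Gapdh did not pass the filter.

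Hk1 (chr10:62268855-62379908, minus strand), a hexokinase that phosphorylates glucose, was at 0 in 18 of 22 wild-type and 20 of 28 maternal deletion libraries. An antisense gene, Hk1os, overlaps it. Gpi1 (chr7:34202122-34230289, minus strand), which turns glucose 6-phosphate into fructose 6-phosphate, had 35.1 ± 34.4 CPM in maternal deletion and 20.9 ± 20.1 in wild type. Its log2 fold change of 0.74 had a 95% interval of -0.39 to 1.88 (edgeR adjusted p 0.27).

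Aldoa (chr7:126795234-126800751, minus strand) splits fructose bisphosphate, and Tpi1 (chr6:124810586-124814296, minus strand) interconverts the triose phosphates that result. Aldoa measured 37.5 ± 54.9 against 27.8 ± 38.2 CPM, with an interval of the log2 change from -0.68 to 1.61. Tpi1 measured 29.8 ± 32.8 against 21.1 ± 20.1 CPM, with an interval from -0.64 to 1.60. Each overlaps a gene on the opposite strand (Fam57b and Spsb2). Both intervals hold rises of over 2-fold, so the data do not show that these genes were level.

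Gapdh (chr6:125161853-125166467, minus strand), the enzyme that makes NADH in glycolysis, had few counts, with 4.58 ± 4.37 CPM in maternal deletion and 2.03 ± 2.18 in wild type. In wild type 17 of 22 libraries had 3 counts or fewer. Pgk1 (chrX:106187100-106203699, plus strand), which makes ATP, measured 17.5 ± 21.1 against 31.8 ± 38.6 CPM (log2 fold change -0.87, interval -2.05 to 0.30). Eno1 (chr4:150236721-150248879, plus strand), which makes phosphoenolpyruvate, measured 17.6 ± 24.9 against 24.1 ± 15.7 CPM (log2 fold change -0.42, interval -1.58 to 0.73). Only 6 of 28 maternal deletion libraries lay above the wild-type median of Eno1.

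Ldha (chr7:46841475-46855627, plus strand), the subunit that favours lactate formation, measured 31.5 ± 47.8 CPM in maternal deletion and 30.8 ± 39.5 in wild type. It ranged from 0 to 229 CPM (median 9.58) and from 0 to 149 CPM (median 15.8), so the groups overlap throughout. The log2 fold change was 0.05 with an interval of -1.19 to 1.29. In wild type 9 of 22 libraries had 3 counts or fewer of Ldha, and in maternal deletion 7 of 28.

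**Figure D3:**
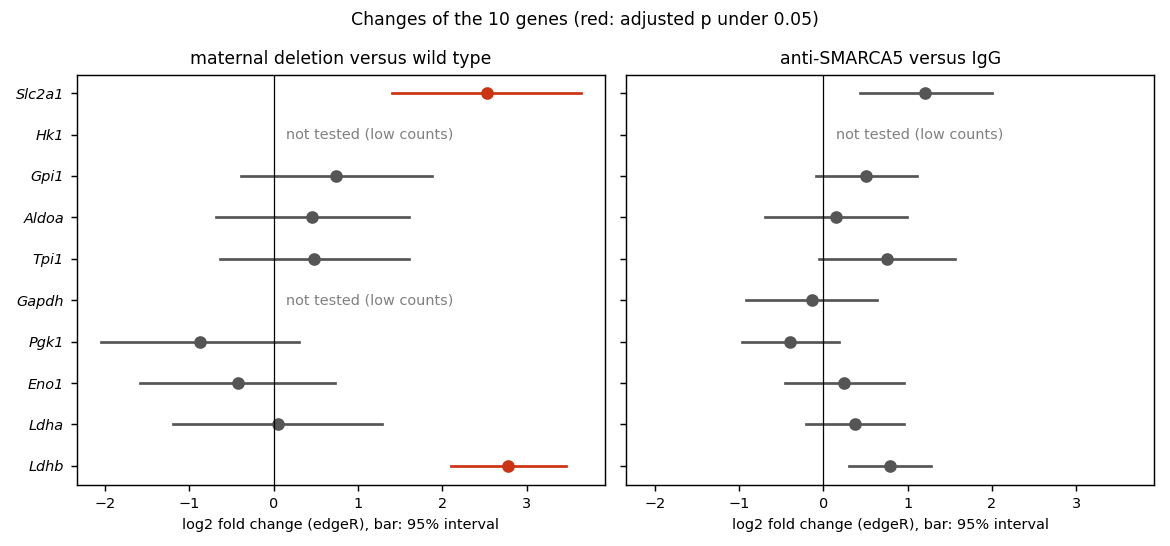
Log2 fold changes (edgeR) with 95% intervals for the members, maternal deletion versus wild type on the left and anti-SMARCA5 versus IgG on the right, red where the adjusted p is under 0.05. Ldhb (2.78) and Slc2a1 (2.53) are red on the left, and no gene is red on the right.

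Replicates 1 and 2 of the first experiment were sequenced on different lanes, so the effect was also read within each. Ldhb rose in both, by 2.17 in replicate 1 (SE 0.51, edgeR adjusted p 0.00124) and 3.15 in replicate 2 (SE 0.42, edgeR adjusted p 3.94e-08). Slc2a1 had a log2 fold change of 1.76 in replicate 1 (edgeR adjusted p 0.13) and rose by 3.16 in replicate 2 (edgeR adjusted p 0.000401). Fitted on the replicate 1 libraries alone, it was called (1.71, edgeR adjusted p 0.0115). Ldha pointed in opposite directions, -1.96 (SE 0.94) in replicate 1 and 1.10 (SE 0.79) in replicate 2, neither past the test. All genes tested were called at 25.4% in replicate 1 and 51.5% in replicate 2.

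The difference of the effect between the replicates was tested as an interaction. By edgeR 0 of 8 members were called, against 0.763% of all genes tested, and 1 member, Ldha, had an unadjusted p under 0.05. Its difference (replicate 2 minus replicate 1) was 3.06 (SE 1.23), with an edgeR adjusted p of 0.195. For Ldhb the difference was 0.98 (adjusted p 0.42) and for Slc2a1 1.40 (adjusted p 0.53).

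**Figure D4:**
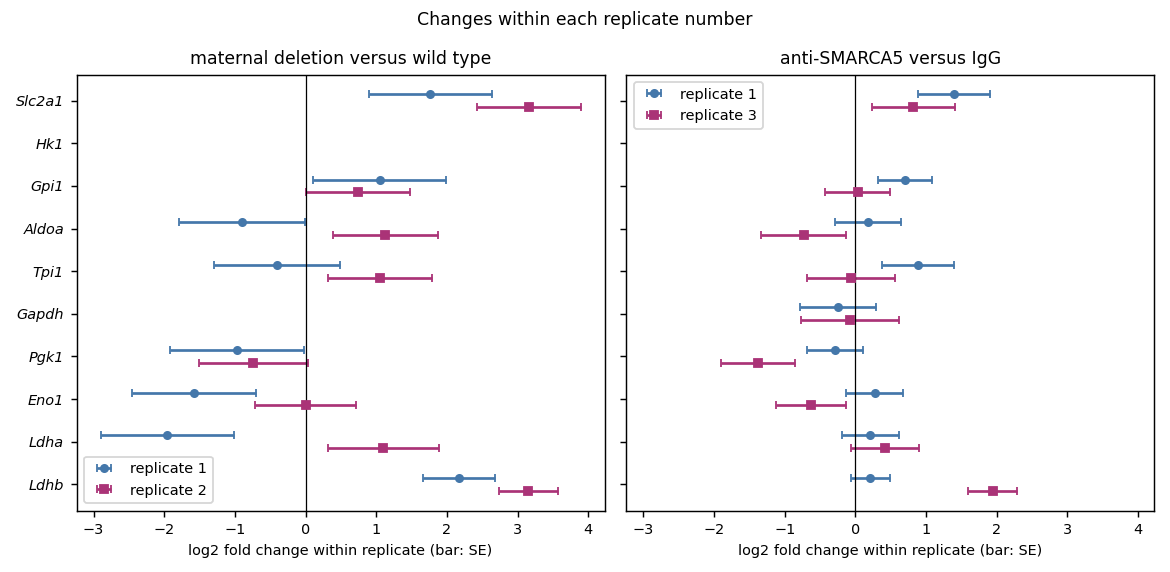
Log2 fold changes with SE within each replicate number, maternal deletion versus wild type (replicates 1 and 2, left) and anti-SMARCA5 versus IgG (replicates 1 and 3, right). Ldhb is positive in both replicates on the left (2.17 and 3.15), and on the right it is 0.21 in replicate 1 and 1.94 in replicate 3.

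Oocyte transcripts moved with Ldhb and Slc2a1. Of 15 listed oocyte markers 14 were tested in maternal deletion against wild type and all 14 were higher, with a median log2 fold change of 2.75. Their summed level ranged from 725 to 33057 CPM (median 11968) in maternal deletion and from 313 to 4692 CPM (median 1372) in wild type. Of 12 tested markers of the 2-cell embryo, 6 were lower and 1 higher. Over all genes tested 56.6% were called and 30.3% were called higher. The part of retained oocyte RNA in the rise of Ldhb was not tested, and more oocyte RNA or less of the embryo's own cannot be told apart in these libraries.

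Single libraries are given here, chosen after their values were seen. The maternal deletion library of well A04 had 20.4 CPM of Gdf9, an oocyte growth factor, against a group median of 4483, and held 645 CPM of Ldhb, below the group median of 1353, and 60.2 of Slc2a1. That of well H09 had 1045 CPM of Gdf9, 454 of Ldhb and 28.8 of Slc2a1. The wild-type library of well G05 had 602 CPM of Gdf9 and 933 of Ldhb, the highest of its group for both. Well H05 had 266 CPM of Gdf9 and 635 of Ldhb. Without these 4 libraries the log2 fold change was 3.17 for Ldhb and 2.55 for Slc2a1, and both were called. For Ldhb this is no check of the rise. The maternal deletion libraries left out lay below their group median, and the wild-type ones lay above theirs, 161 CPM. Leaving them out therefore widens the gap.

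Markers of other cells were scarce. Markers of cumulus and granulosa cells summed to 0 to 93.9 CPM in maternal deletion (median 32.5) and 0 to 45.3 in wild type (median 0.225). Of these 16 markers, 1 had a median over 3 counts in maternal deletion and 0 in wild type. Sperm markers had medians of 2.61 and 0 CPM, and blood markers had a median of 0 in both. None of these markers passed the filter in that comparison. The difference of the cumulus sum moves with Ldhb too, and its part was not tested.

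**Figure D5:**
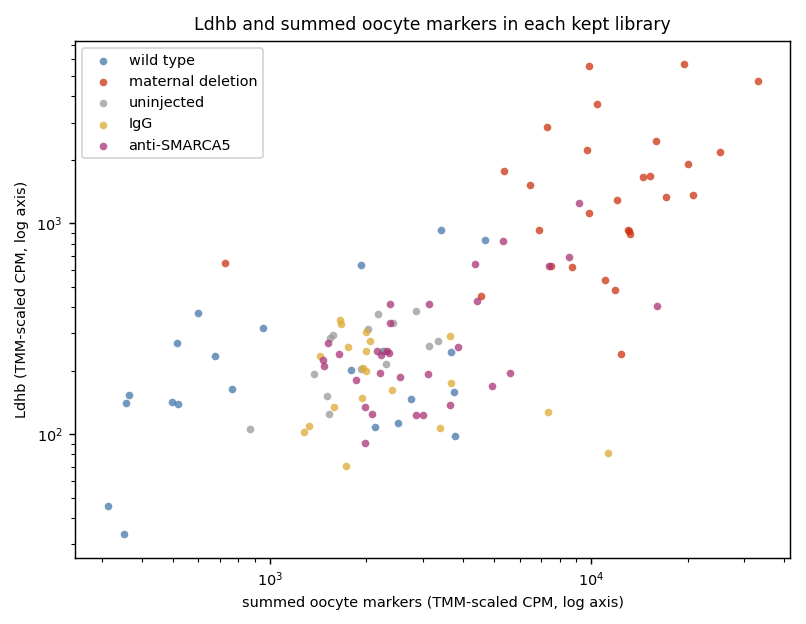
Ldhb against the summed oocyte markers in each kept library, both in TMM-scaled CPM on log axes, coloured by group. Most maternal deletion libraries lie at the upper right (median oocyte sum 11968 CPM), apart from 1 at 725 CPM, and most wild-type libraries lie at the lower left (median 1372 CPM).

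Against IgG, anti-SMARCA5 embryos had 0 of 9 members called by edgeR, where 3.03% of 10447 genes tested were called. Ldhb and Slc2a1 had unadjusted p under 0.05, and DESeq2 called 1 member, Slc2a1. Ldhb measured 325 ± 251 against 196 ± 87.0 CPM, a log2 fold change of 0.79 (SE 0.25, interval 0.30 to 1.28, edgeR adjusted p 0.0598). Slc2a1 measured 31.8 ± 25.7 against 14.0 ± 13.9 CPM, a log2 fold change of 1.21 (SE 0.40, interval 0.43 to 2.00, edgeR adjusted p 0.0653). The median over the 9 members was 0.37 and that over all genes 0.04.

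Blocking on the replicate number, which uses replicates 1 and 3, gave a call for both, in a fit that called 2835 of 10100 genes tested. Ldhb then rose by 0.88 (edgeR adjusted p 0.00938) and Slc2a1 by 1.17 (edgeR adjusted p 0.0225). Leaving out replicate 2 of anti-SMARCA5, which has no IgG partner, had the same outcome (0.90 and 1.32). The alternatives ranged in adjusted p from 0.00938 to 0.723 for Ldhb and from 0.0225 to 0.488 for Slc2a1. Slc2a1 was also called with no filter on low counts (edgeR adjusted p 0.0377) and with all embryo libraries (edgeR adjusted p 0.0326). Whether the test was passed thus differed between the fits, and the cause was not tested.

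Ldhb was called in 1 of the 2 pools. In replicate 1 its log2 fold change was 0.21 (SE 0.28, edgeR adjusted p 0.683), and in replicate 3 it rose by 1.94 (SE 0.35, edgeR adjusted p 0.000424). The difference, replicate 3 minus replicate 1, was 1.73 (SE 0.44) with an edgeR adjusted p of 0.054, just short of the test; by edgeR 0 of 9 members passed, 1 had an unadjusted p under 0.05, and 0.366% of all genes passed. Slc2a1 was 1.40 in replicate 1 and 0.82 in replicate 3, neither called. Pgk1 fell by 1.38 in replicate 3 (edgeR adjusted p 0.0466) and was at -0.29 in replicate 1. All genes tested were called at 1.04% in replicate 1 and 23.1% in replicate 3.

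Replicate 3 of anti-SMARCA5 also had the highest median oocyte marker sum of its group, 3124 to 16032 CPM (median 4403), against 1466 to 5333 CPM (median 2215) in replicate 1. Replicate 2 lay between, at 1985 to 8556 CPM (median 3860). Ldhb in replicate 2 had a median of 169 CPM (90.3 to 695 CPM, n = 7), against 237 CPM in replicate 1. IgG embryos of replicate 3 had 1590 to 11269 CPM (median 2905). Markers of the 2-cell embryo summed to 465 to 683 CPM (median 589) in replicate 3 of anti-SMARCA5, against a median of 1589 in its replicate 1 and 1165 in IgG replicate 3. IgG embryos of replicate 1 had no Trim21 count at all, so the controls of the 2 pools are not alike. The part of these in the Ldhb values was not tested.

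Against uninjected embryos, Pgk1 was lower in anti-SMARCA5 embryos, and it was the only 1 of 9 members called, where 27.9% of 10750 genes tested were called and 10.4% were called lower. It ranged from 3.61 to 71.5 CPM (median 15.9) in anti-SMARCA5 and from 19.5 to 56.2 CPM (median 35.7) in uninjected embryos, which overlap. Only 4 of 31 anti-SMARCA5 libraries lay above the uninjected median. The log2 fold change was -0.75 (SE 0.29) with an edgeR adjusted p of 0.0492, which ran from 0.0143 to 0.347 over the alternatives; 1 of those that ended the call left out only well C02 (adjusted p 0.0538). Ldhb (0.43, interval -0.09 to 0.96) and Slc2a1 (0.10, interval -0.70 to 0.91) did not pass.

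Within replicate 3 of that comparison Ldhb rose by 1.71 (edgeR adjusted p 0.00211), Pgk1 fell by 1.66 (edgeR adjusted p 0.0136) and Eno1 fell by 2.00 (edgeR adjusted p 0.00376), with 7 against 5 embryos. Within replicate 1 none of the 9 was called by edgeR. The shares of all genes called were 36.7% and 11.3%. This comparison and the preceding one share the anti-SMARCA5 libraries.

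IgG embryos against uninjected embryos gave 0 of 9 members called by edgeR, as for all 9915 genes tested (0.0%). The 9 log2 fold changes were all below 0, with a median of -0.50 against 0.03 over all genes. Slc2a1 (-1.13), Gpi1 (-0.85) and Tpi1 (-0.76) had an unadjusted p under 0.05. DESeq2 called Gpi1 alone of the 9 (log2 fold change -0.84, adjusted p 0.0392). Without the IgG libraries of replicate 1, which lack Trim21, edgeR called Tpi1 (-1.13), Eno1 (-0.91) and Ldhb (-0.71) lower, among 1343 genes called. That fit sets IgG of replicate 3 against uninjected embryos of replicates 1 and 3, so the pools are not matched, and uninjected Ldhb was 289 ± 64.5 CPM in replicate 1 and 175 ± 70.7 in replicate 3. Within replicate 3 edgeR called none of the 9 members and 0.0% of all genes; Tpi1 was at -0.93 (adjusted p 0.387), Eno1 at -1.39 (adjusted p 0.196) and Ldhb at -0.25 (adjusted p 0.733), and Slc2a1, Ldha and Eno1 had an unadjusted p under 0.05.

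The effect of deletion minus that of TrimAway (anti-SMARCA5 against IgG) was tested in 1 fit of the 4 groups. Ldhb was the only 1 of 9 members to differ, by 1.95 (SE 0.41, edgeR adjusted p 0.000271, 0.000112 to 0.000625 over the alternatives). The TrimAway effect on Ldhb that enters here was 0.21 in replicate 1 and 1.94 in replicate 3. No alternative for this difference left out either of these pools, or the IgG libraries of replicate 1, which lack Trim21. How far the difference holds against each pool was not tested. Of 12035 genes tested, 19.2% differed, 10.5% in the direction of Ldhb. For Slc2a1 the difference was 1.24 (edgeR adjusted p 0.173) and for Ldha -0.37 (edgeR adjusted p 0.748). Experiment, lane and method of depletion cannot be told apart in this difference.

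Over the 5 groups, no gap between neighbours in the order of group means exceeded the larger SD of the pair for any of the 10 genes. In Ldhb the order from the top was maternal deletion, anti-SMARCA5, wild type, uninjected and IgG. Across the 11 means of group and replicate number, on the log2(CPM + 1) scale, Pgk1 and Eno1 ran most alike among the members (Pearson r 0.92), and Ldhb and Slc2a1 had an r of 0.66. Ldhb had an r of -0.66 with Pgk1 and -0.61 with Eno1. These points share libraries and depth, and the values are descriptions.

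The gene most like each member over the same 11 points was sought among 8877 genes with at least 10 CPM on average, leaving out any members among them. For Ldhb it was Mea1 (r 0.976). For Slc2a1 it was Lrp5, a co-receptor for Wnt ligands (0.96), for Pgk1 the ribosomal protein gene Rps4x (0.986) and for Ldha the kinetochore gene Zwint (0.971). The others were Prtn3 for Hk1 (0.956), D930015E06Rik for Gpi1 (0.952), Ppp2r5d for Aldoa (0.908), Grlf1 for Tpi1 (0.933), the chaperone Hyou1 for Gapdh (0.92) and AI661453 for Eno1 (0.971). Each was picked as the highest r of a search over 11 points, so a high r comes in part from the picking. These values show no shared control.

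Among other genes of glycolysis, 3 of 8 tested rose and 3 fell after deletion, with a median log2 fold change of 0.44. Of all 8518 genes tested there, 56.6% were called and 30.3% were called higher, with a median of 0.18. In anti-SMARCA5 against IgG 3.03% of all genes tested were called. The counts of this list and of the lists below are to be read beside these shares. Adpgk, an ADP-dependent glucokinase, rose from 16.2 ± 22.2 to 207 ± 119 CPM (3.63, edgeR adjusted p 2.83e-08), with all 28 libraries above the wild-type median. Hk2, another hexokinase, rose by 2.66 (edgeR adjusted p 0.00112), from 5.49 ± 11 to 33.5 ± 51.3 CPM. Ldhc, the lactate dehydrogenase subunit of the germ line, fell by 2.23 (edgeR adjusted p 0.00434; -2.0, adjusted p 0.058, without replicate 1), and the liver-type phosphofructokinase Pfkl fell by 1.56 (edgeR adjusted p 0.0283, lost in 4 of 11 alternatives).

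Against IgG, anti-SMARCA5 embryos had 1 of 8 of this list called: Hk2 rose from 7.5 ± 7.97 to 23.0 ± 21.8 CPM (1.65, edgeR adjusted p 0.0368). That call ended in 5 of 13 alternatives, with values from 1.42 to 1.93. Hk2 was thus called higher in both experiments, while Hk1 was too scarce to test in either.

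Of the carriers of sugars and lactate, 3 of 5 tested rose after deletion and none fell (median 1.32). Over all genes tested 56.6% were called and 30.3% were called higher (median 0.18). Emb, embigin, a partner protein of lactate carriers, rose by 2.38 (edgeR adjusted p 0.00197) and Slc2a12, another glucose carrier, by 2.41 (edgeR adjusted p 0.00239); each call ended in 1 of 12 alternatives, Emb at 1.47 without replicate 2 and Slc2a12 at 2.1 without replicate 1. With TrimAway 0 of 7 were called by edgeR.

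Regulators of glycolysis had 3 of 8 higher and 1 lower after deletion, beside 56.6% of all genes tested called. Hif1a, the hypoxia-inducible factor subunit, rose from 47.4 ± 58.3 to 266 ± 170 CPM (2.53, edgeR adjusted p 1.17e-05). Mlxip, a glucose-responsive transcription factor, rose by 1.04, a call that ended in 3 of 12 alternatives and stood at 0.26 without replicate 2. The gene listed as 9630033F20Rik, now Tigar, which lowers glycolytic flux, fell from 366 ± 198 to 48.6 ± 88.3 CPM (-2.87, edgeR adjusted p 3.61e-07). With TrimAway 0 of 11 regulators were called by edgeR.

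The pentose phosphate list had 1 of 7 higher and 3 lower after deletion, beside 56.6% of all genes tested called. Prps1, which makes the precursor of nucleotides, fell from 1080 ± 573 to 177 ± 296 CPM (-2.58, edgeR adjusted p 1.82e-05), and Rpia by 1.77 (edgeR adjusted p 2.89e-05). G6pdx, the entry enzyme of the pathway, rose by 1.37 (edgeR adjusted p 0.00196; 0.97, adjusted p 0.0604, without replicate 2). With TrimAway Prps1 fell by 1.03 (edgeR adjusted p 0.0338) and G6pdx rose by 1.02 (edgeR adjusted p 0.0412), the 2 calls among 7 tested. Those calls ended in 3 and 6 of 13 alternatives, and without replicate 3 G6pdx stood at 0.39.

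Where pyruvate enters the mitochondrion, 4 of 12 tested genes rose and 4 fell after deletion, beside 56.6% of all genes tested called. The pyruvate dehydrogenase phosphatases diverged, with Pdp1 higher by 3.29 (edgeR adjusted p 7.74e-05) and Pdp2 lower by 3.21 (edgeR adjusted p 1.68e-05). Dlat, a subunit of pyruvate dehydrogenase, rose by 2.49, and the pyruvate carrier subunit listed as Brp44, now Mpc2, fell by 1.84. With TrimAway only Pdp2 of 13 was called, lower by 1.17 (edgeR adjusted p 0.0412), a call that ended in 6 of 13 alternatives, at -0.09 without the IgG libraries of replicate 1.

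In the citric acid cycle 6 of 17 tested genes rose and 4 fell after deletion, beside 56.6% of all genes tested called. Subunits of the NAD-linked isocitrate dehydrogenase fell, Idh3g from 111 ± 89.3 to 6.71 ± 15.8 CPM (-3.94) and Idh3b by 2.49. The cytosolic enzymes Idh1 and Aco1 rose, each by 2.36. Without replicate 1 Idh3b (-2.03), Idh1 (2.33) and Aco1 (2.31) were no longer called (edgeR adjusted p 0.0936, 0.0689 and 0.0605). With TrimAway 0 of 19 were called by edgeR. Among genes that shuttle NADH, 1 of 7 was lower after deletion, Gpd2 (-1.27, edgeR adjusted p 0.0466), which with the replicate block stood at -1.05 (edgeR adjusted p 0.106) and without replicate 2 at -0.43. With TrimAway Gpd1l alone of 7 was called, lower by 0.71 (edgeR adjusted p 0.0284, lost in 2 of 13 alternatives).

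Genes with near-identical copies are less sure, since the handling of reads that match several places is not given in the sources used here. GENCODE names copies for Aldoa (4), Tpi1 (6), Gapdh (2), Pgk1 (3), Eno1 (1) and Ldha (2), and none by name for Ldhb, Slc2a1, Gpi1 or Hk1. Copies present in the count tables held 212 counts for Aldoa, against 10050 for Aldoa itself, and fewer for the others. The search went by symbol only, so copies under unrelated names are not in these numbers. They therefore do not measure the reads lost to copies. The part of such reads in the low level of Gapdh was not tested.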

How the data were processed

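Polyadenylated RNA was read from single 2-cell embryos with the RNA part of scNMT-seq and Nextera XT, per the labels' protocols. The authors deposited 2 tables of whole-number counts per gene, not normalized. Trim Galore 0.6.5, cutadapt 2.3, HISAT2 2.1.0 and GRCm38 are named in the submitters' processing notes. Strand handling, multi-mapping and duplicate removal are not given in the sources used here. Lines sharing an identifier (57 identifiers) were summed, giving 25900 genes, and 19 embryo libraries under 100000 counts were left out. Tests used edgeR 4.0.16 under R 4.3.3 (TMM scaling, filterByExpr, robust quasi-likelihood F test), each comparison on its own groups, and p-values were adjusted by Benjamini-Hochberg over all genes tested, called under 0.05. Intervals cover 95%. Only the edgeR fit of maternal deletion against wild type was run on simulated counts with known changes. Those counts held no difference between pools, so that run does not bear on spread between pools. DESeq2 1.42.0, other scalings, filters and depth minima, leaving out replicates or libraries, and the replicate block were alternatives.

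The members and gene lists were chosen with earlier results of these data known. All members are named. From each other list, the 2 largest rises and falls among called genes whose average log2 CPM reached 4 are named for maternal deletion versus wild type and anti-SMARCA5 versus IgG, besides Smarca5, Trim21 and the gene most like each member. Gdf9 and the single wells were chosen after their values were seen. Replicate numbers name pools, per the labels, which pairs groups by number; deviations of same-numbered group means correlated at 0.519 (deletion), 0.632 (anti-SMARCA5 and IgG), 0.092 (anti-SMARCA5 and uninjected) and 0.418 (IgG and uninjected) over 8897 genes.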

Additional observations from a re-analysis of the deposited data

Results flagged for a closer look

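The effect on Ldhb differed between maternal deletion and TrimAway by 1.95 on the log2 scale (SE 0.41, edgeR adjusted p 0.000271). It is listed because this test of the difference between the effects in the 2 experiments was passed, as it was by 19.2% of the 12035 genes tested and by 1 of the 9 members. Each effect has its own controls. The TrimAway effect on Ldhb was 0.21 in replicate 1 and 1.94 in replicate 3, and no alternative for the difference left out either pool.

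A signal appeared outside the embryo libraries: 1 of the wells without an embryo, H03, held 7 counts of Ldhb among 1875, or 0.373% (95% Wilson interval 0.181 to 0.769%, counting error only). The other wells held 1 of 823 and 0 of 453 counts.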

How the results depend on the processing

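Ldhb and Slc2a1 stayed called after deletion under all 12 alternatives run for each, the replicate block (2.74 and 2.57) and fits without either replicate included. Those alternatives that left out single wells are no check of Ldhb, since the wells left out narrowed its gap. Slc2a1 within replicate 1 of the joint fit was not called (1.76, adjusted p 0.13), while the fit without replicate 2 called it (1.71, adjusted p 0.0115). Scaling by total counts moved the median of all genes from 0.18 to -0.04 (deletion), 0.04 to -0.10 (anti-SMARCA5 against IgG), 0.13 to -0.29 (anti-SMARCA5 against uninjected) and 0.03 to -0.23 (IgG against uninjected). Members called in anti-SMARCA5 against IgG, 0 in the comparison as reported, came to 2 with the replicate block, with no filter on low counts and with all embryo libraries, to 1 with DESeq2, with the 3 TrimAway groups in 1 fit and without well C02 (chosen after seeing the data), and to 0 to 2 on leaving out a replicate. In anti-SMARCA5 against uninjected the 1 call was lost, leaving 0, with no filter, with all embryo libraries, with at least 500000 counts and without well C02, and the count was 0 to 1 on leaving out a replicate. In IgG against uninjected the count rose from 0 to 1 with no filter and with DESeq2 and to 3 without the IgG libraries of replicate 1 (chosen after seeing the data). The interaction by replicate had 1 member, Ldhb, with no filter (1.76, adjusted p 0.0384). The cause of these moves was not tested.

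Uncalled values changed sign as follows. In deletion, Ldha was -0.20 with the replicate block and -0.02 with total counts, and on leaving out a replicate Aldoa ran from -0.94 to 1.17, Tpi1 from -0.44 to 1.17 and Eno1 reached 0.06. In anti-SMARCA5 against IgG, the block gave Aldoa -0.16 and Eno1 -0.08, leaving out a replicate (or the IgG libraries of replicate 1) gave Aldoa from -0.16 to 0.77, and Gapdh was 0.33 without the IgG libraries of replicate 1. In anti-SMARCA5 against uninjected, total counts gave Slc2a1 -0.28, Ldha -0.31 and Ldhb -0.07, size factors and DESeq2 each gave Ldha -0.03, and Tpi1 was 0.00 with no filter, 0.02 with all libraries, 0.01 with at least 500000 counts and 0.04 without well C02. Leaving out a replicate there gave Slc2a1 from -0.98 to 0.64, Tpi1 from -0.59 to 0.13, Eno1 from -1.29 to 0.28, Ldha from -0.38 to 0.43 and Ldhb from -0.10 to 1.22, and in IgG against uninjected Eno1 from -1.39 to 0.18 and Ldha from -0.93 to 0.14.

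Genes called over the whole table moved in anti-SMARCA5 against IgG from 317 to 2835 with the block, 3010 with no filter, 1029 with DESeq2, 64 with total counts, 150 with at least 500000 counts, 623 with all libraries, 897 with 3 groups in 1 fit, 521 without well C02, 0 without the IgG libraries of replicate 1 and 0 to 591 on leaving out a replicate. IgG against uninjected went from 0 to 881 with no filter, 207 with DESeq2 and 1343 without those IgG libraries. With no filter deletion went from 4825 to 10416, anti-SMARCA5 against uninjected from 2999 to 6184, and the difference between the experiments from 2315 to 4285 (1408 with the block); without replicate 2 deletion had 2801 and without replicate 1 anti-SMARCA5 against uninjected had 1. The interaction by collection went from 65 to 678 with no filter, 2 with all libraries and 1 with at least 500000 counts, and that by replicate from 37 to 136 with no filter. Of the list genes named, Ldhc, Pfkl, Slc2a12, Idh3b, Idh1, Aco1 and Gpd2 lost their call in deletion without replicate 1, and Emb, Mlxip, G6pdx and Gpd2 without replicate 2. The block changed no other member's call, and of the named list genes it ended that of Gpd2 (-1.05). Depth limits Hk1 and Gapdh, which often had 3 counts or fewer.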
